A study of Mus musculus with 36 samples.

Results

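The 10 genes described here encode the cargo adaptor p62 (Sqstm1), the 5 members of the LC3 and GABARAP family (Map1lc3a, Map1lc3b, Gabarap, Gabarapl1, Gabarapl2), the initiating factors Ulk1 and Atg14, and the transcription factors Tfeb and Tfe3. They were chosen by symbol, with earlier results of these data known, from 16060 genes present in any of the 6 gene tables. All 10 were present in every gene table, with 32 annotated transcripts in the transcript tables. Liver and inguinal white adipose tissue (iWAT, fat from under the skin of the groin) were sequenced as bulk RNA from C57BL/6J mice after 16 weeks on 1 of 3 diets. The diets were ad libitum feeding (AL, the controls), calorie restriction (CR), and time restriction without calorie restriction (TR, labelled TR.al). Every diet gave 6 liver and 6 iWAT libraries, 36 in all, from 20 mice if a number that CR and TR labels share stands for 2 mice, and 16 mice gave both tissues. The hours since the last meal, the age, the sex and the genotype beyond the strain were not given in the sources used here, so an effect of the time since feeding cannot be told apart from an effect of the diet. TR was set beside CR to ask whether a fasting period each day, with no cut in calories, changes transcription as CR does.

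Autophagy delivers cytoplasmic cargo to the lysosome inside a double membrane. The ULK1 kinase complex starts it, a lipid kinase complex that contains ATG14 marks the membrane, and LC3 and GABARAP proteins are then joined to a membrane lipid, where adaptors such as p62 tie ubiquitinated cargo to them. TFEB and TFE3 switch on autophagy and lysosome genes when they enter the nucleus, and the nutrient-sensing kinase mTORC1 holds them in the cytoplasm. In the liver this pathway is known to respond to fasting. The tables give RNA, and p62 and lipid-bound LC3 proteins, which are themselves degraded by autophagy, were not measured.

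The family is shown first by the end of the coding sequence of 4 members, since this is where each protein is trimmed and joined to lipid. The last 36 bases of each follow, 5′ to 3′ (GENCODE M21, GRCm38), with the codon of the glycine that becomes attached in capitals.
Map1lc3a: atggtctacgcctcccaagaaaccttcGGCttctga
Gabarap: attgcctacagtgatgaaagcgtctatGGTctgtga
Gabarapl1: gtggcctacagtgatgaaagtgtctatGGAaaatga
Gabarapl2: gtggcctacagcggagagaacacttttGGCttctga
The glycine is codon 120 in Map1lc3a and codon 116 in the 3 GABARAP genes, and a single codon stands between it and the stop codon in each of the 4. Over the coding sequence Gabarap and Gabarapl1 were 74.6% identical, while the most distant of these pairs, Map1lc3a and Gabarap, was 51.0% identical. The longest identical stretch between any 2 of the 4 was 17 bases, in Gabarap and Gabarapl1. Other loci share more with 2 members: stretches of at least 50 bases shared with transcripts of other genes covered 21.7% of the main Map1lc3b transcript and 20.8% of that of Gabarapl2. For Gabarapl2 these were 4 processed pseudogenes, of which 0 are in the gene tables. For Map1lc3b they were in 295 genes, 207 of them in a gene table, among them 7 pseudogenes of which 1, Gm6055, is in a table (iWAT alone). The measured genes other than Gm6055 shared at most 112 bases each. Reads of these 2 members are uncertain over the shared bases. No stretch of that length was found for Sqstm1, Map1lc3a, Gabarap, Ulk1, Tfeb or Tfe3, and for Gabarapl1 and Atg14 the shared stretches were those of an antisense gene.

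The 2 promoters shown next belong to the members that fell in the liver on both diets by the widest margin. Each is the stretch before the annotated start of the gene, from the RefSeq promoter table (GRCm38.p6), 5′ to 3′ on the strand of the gene, with GGGCGG or its reverse complement CCGCCC in capitals. The Sqstm1 stretch is chr11:50210828-50211070 on the minus strand and the Gabarapl1 stretch chr6:129532942-129533159 on the plus strand.
Sqstm1: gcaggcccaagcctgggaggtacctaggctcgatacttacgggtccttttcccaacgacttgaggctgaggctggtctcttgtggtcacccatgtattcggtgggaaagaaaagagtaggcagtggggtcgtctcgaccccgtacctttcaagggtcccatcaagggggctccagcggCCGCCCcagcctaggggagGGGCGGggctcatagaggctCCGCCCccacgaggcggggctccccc
Gabarapl1: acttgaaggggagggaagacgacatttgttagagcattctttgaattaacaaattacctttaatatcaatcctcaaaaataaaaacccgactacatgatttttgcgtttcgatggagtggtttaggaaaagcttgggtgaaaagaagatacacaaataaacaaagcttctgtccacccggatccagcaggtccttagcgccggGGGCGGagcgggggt
The Sqstm1 stretch holds 3 such matches in 243 bases with 64.2% G or C, and the Gabarapl1 stretch 1 match in 218 bases with 43.6% G or C. Over the 250 bases before each RefSeq start, on both strands, GGGCGG was in 10 of 12 promoters of 9 members, beside 32.7% of all 32851 promoters. TATAAA, chosen like GGGCGG after the sequences were read, was in 0 of the 12 and in 12.4% of all.

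The next 4 motifs were searched on both strands over windows of 250 bases before and 50 after each RefSeq start. The E-box CACGTG and its longer form CACGTGAC, which TFEB and TFE3 bind, were in 1 of the 12 windows, that of Atg14, beside 7.15% and 2.25% of all promoters. The shorter motif lies inside the longer one, and the match begins 1 base before the RefSeq start (chr14:47568417-47568446, minus strand, motif in capitals).
Atg14: aaacaaaatccCACGTGACtggccctgagc
TGACNNNGC, the core of the NRF2 site, was in the window of Map1lc3b alone (12.4% of all promoters) and GTAAACA, a FOXO motif, in none of the 12 (3.65% of all). In the 250 bases before the start alone, none of these 4 motifs was found for a member. A window without a match says nothing about sites elsewhere.

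What was deposited compares groups with each other, so the level in each library, the spread within a group and the depth are unknown here. Each comparison gives a log2 fold change (0 is no difference, -1 is a halving) and an adjusted p over all genes, from the authors' edgeR test. An approximate standard error (SE) was derived from each deposited statistic. A gene is said to have fallen or risen only where the adjusted p was under 0.05.

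In the liver, 5 of the 10 genes fell in CR and 3 fell in TR, and none rose on either diet. Sqstm1, Gabarapl1 and Tfe3 fell on both diets, and Map1lc3a and Atg14 passed the threshold in CR alone, where 5.37% of all 12636 genes fell and 11.2% changed in either direction. In TR 9.54% of 12691 genes fell and 18.9% changed in the authors' deposited table. The median log2 fold change of the 10 genes was -0.27 in CR and -0.23 in TR, beside -0.004 and -0.0005 over all genes. Because the 10 were chosen with earlier results of these data known, their counts and medians beside all genes are a description. Read from the main transcript of each gene, 2 were called in CR and 2 in TR, Sqstm1 and Gabarapl1 on each diet. Among all transcripts 2.66% were called in CR and 3.94% in TR, lower shares than among all genes. As these are bulk samples, less RNA per cell and fewer cells of a type cannot be told apart. The plot of fold changes against AL shows both diets side by side in each tissue.

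**Figure D1:**
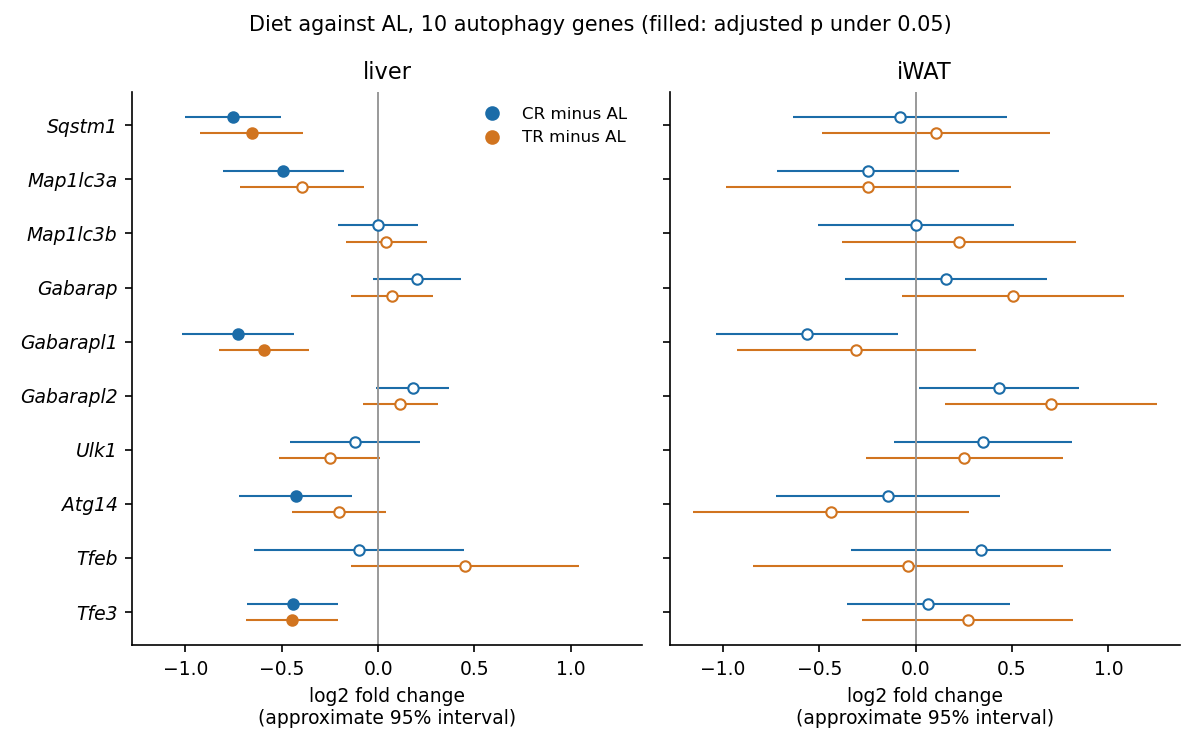
Log2 fold change against AL (x axis) of the 10 genes (y axis) in liver and iWAT, CR in blue and TR in orange. Lines are approximate 95% intervals and filled points passed the adjusted p of 0.05. In liver 5 CR points and 3 TR points are filled, all below 0, and in iWAT none is.

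Sqstm1 (ENSMUSG00000015837, GRCm38 chromosome 11 from 50199366 to 50210827) encodes p62, which binds ubiquitin and LC3 and also the NRF2 inhibitor KEAP1. In liver it stood at 0.593 of the AL level in CR, a log2 fold change of -0.75 (SE 0.13, adjusted p = 2.23e-07 by edgeR) in the authors' deposited table. In TR it stood at 0.634 of the AL level, a log2 fold change of -0.66 (SE 0.14, adjusted p = 3.58e-05 by edgeR) in the authors' deposited table. These were the lowest fold changes of the 10 genes on each diet, at ranks 156 and 458 by p among all genes. Its exons overlap those of Mrnip, a gene on the other strand, over 580 of 3356 bases (17.3%). Mrnip also fell in liver, by 0.83 in CR and 0.87 in TR, at a log2 mean CPM of 0.60 and 0.58 beside 8.34 and 8.38 for Sqstm1 in the authors' deposited tables. Whether counting used strand was not given in the sources used here, and reads from the overlap cannot be told apart. Mgat4b, on the other side of the Sqstm1 start, had 0.14 and 0.22 with an adjusted p of 0.52 and 0.24 by edgeR in the authors' deposited tables.

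Of the LC3 pair, Map1lc3a (ENSMUSG00000027602, chromosome 2 from 155276297 to 155278073) fell in the liver in CR, with a log2 fold change of -0.49 (SE 0.16, adjusted p = 0.0242 by edgeR) in the authors' deposited table. In TR it had -0.40 (SE 0.16), which missed the threshold with an adjusted p of 0.0712 by edgeR in the authors' deposited table. Map1lc3b (ENSMUSG00000031812, chromosome 8 from 121590361 to 121598760), the form most often used to follow autophagosomes, had -0.0004 in CR (approximate 95% interval -0.21 to 0.21) and 0.04 in TR (-0.17 to 0.25) in the authors' deposited tables. In CR in the liver the approximate interval of Map1lc3a (-0.81 to -0.18) and that of Map1lc3b overlapped only between -0.21 and -0.18. The difference between the 2 genes was not tested.

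The GABARAP genes, whose products act late in the closing of the autophagosome, did not all pass: Gabarapl1 did on both diets, and Gabarap and Gabarapl2 on neither. Gabarapl1 (ENSMUSG00000030161, chromosome 6 from 129533160 to 129542346) fell in the liver to 0.603 of AL in CR, a log2 fold change of -0.73 (SE 0.15, adjusted p = 3.87e-05 by edgeR), in the authors' deposited table. In TR it fell to 0.663 of AL, a log2 fold change of -0.59 (SE 0.12, adjusted p = 1.67e-05 by edgeR), in the authors' deposited table. An antisense gene, 1700101I11Rik, overlaps 28.3% of its exon bases and was in none of the 6 gene tables. Gabarap (ENSMUSG00000018567, chromosome 11 from 69991143 to 69994951) had 0.20 in CR and 0.07 in TR (adjusted p of 0.299 and 0.698 by edgeR) in the authors' deposited tables. Gabarapl2 (ENSMUSG00000031950, chromosome 8 from 111940703 to 111953612) had 0.18 and 0.11 (adjusted p of 0.261 and 0.457 by edgeR) in the authors' deposited tables. The approximate intervals of Gabarapl1 lay below those of Gabarap and Gabarapl2 on both diets, and the difference between these genes was not tested.

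Among the initiating factors, Atg14 (ENSMUSG00000037526, chromosome 14 from 47540893 to 47570649), the subunit that directs the lipid kinase to autophagy, fell in the liver in CR by 0.43 (SE 0.15, adjusted p = 0.0396 by edgeR) in the authors' deposited table. In TR it had -0.20 (SE 0.12, adjusted p = 0.265 by edgeR) in the authors' deposited table. Its 1 transcript in the tables, Atg14-201, had -0.44 in CR with an adjusted p of 0.501 by edgeR among all transcripts in the authors' deposited table. Ulk1 (ENSMUSG00000029512, chromosome 5 from 110784488 to 110810097), the initiating kinase, had -0.12 in CR and -0.25 in TR (adjusted p of 0.748 and 0.186 by edgeR) in the authors' deposited tables. The approximate interval of Ulk1 ran from -0.46 to 0.22 in CR and from -0.51 to 0.01 in TR, so the data leave room for a fall of Ulk1 of about the size seen for Atg14.

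Of the transcription factors, Tfe3 (ENSMUSG00000000134, chromosome X from 7762560 to 7775202) fell in the liver by almost the same amount on both diets. Its log2 fold change was -0.44 in CR (SE 0.12, adjusted p = 0.00401 by edgeR) and -0.45 in TR (SE 0.12, adjusted p = 0.00301 by edgeR) in the authors' deposited tables. The most abundant Tfe3 transcript, Tfe3-204, had -0.61 on both diets and missed the threshold (adjusted p of 0.380 and 0.522 by edgeR) in the authors' deposited transcript tables. Tfeb (ENSMUSG00000023990, chromosome 17 from 47737030 to 47792419) had -0.10 in CR and 0.45 in TR (SE 0.28 and 0.30, adjusted p of 0.880 and 0.315 by edgeR) in the authors' deposited tables. Tfeb was measured with the lowest precision of the 10 in liver, at a log2 mean CPM of 1.52 and 1.82.

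The gene nearest to Sqstm1 by its 4 fold changes against AL, among 1056 genes called in 2 of the 4 tables, was Pparg, a nuclear receptor of fat storage. Its values were -0.66 and -0.61 in liver and 0.04 and 0.07 in iWAT, CR before TR, at a Euclidean distance of 0.165 log2 units in the authors' deposited tables. Casp6, a caspase, lay at 0.200 and Trim34a, of the tripartite motif family, at 0.239. Since these genes were picked for this likeness, their values are a description.

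The transcripts that fell in liver belonged to Sqstm1 and Gabarapl1. In CR 3 of 27 transcripts of the 10 genes fell and none rose, beside 1.21% of 26448 transcripts lower and 2.66% called in either direction. Sqstm1-202, which made up 74.0% of the summed transcript CPM of its gene, fell by 0.82 (SE 0.16, adjusted p = 0.000105 by edgeR) in CR and by 0.68 (SE 0.18, adjusted p = 0.00652 by edgeR) in TR in the authors' deposited tables. Sqstm1-201, 18.0% of the sum in CR, fell by 0.78 in CR and 0.54 in TR, and Gabarapl1-201 fell by 0.74 and 0.59 in the authors' deposited tables. In TR 5 of 28 transcripts fell and 1 rose, beside 1.99% of all transcripts lower and 3.94% called in either direction. The protein-coding Sqstm1-204, at 1.86% and 1.53% of the summed transcript CPM of its gene, had 1.64 (SE 1.38) in CR and 1.30 (SE 1.11) in TR and was not called in the authors' deposited tables.

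The other Sqstm1 transcripts that fell in TR keep an intron. Sqstm1-203 fell by 1.20 (SE 0.28) and Sqstm1-206 by 1.49 (SE 0.35), at 3.83% and 1.48% of the summed transcript CPM of the gene, in the authors' deposited table. In CR these 2 had -0.76 and -0.75 and missed the threshold (adjusted p of 0.262 and 0.247 by edgeR) in the authors' deposited table. Map1lc3a was read mostly as Map1lc3a-203, which the annotation calls a processed transcript and not protein coding, at 88.0% of the sum in the liver CR table and 93.0% in the iWAT CR table. Its log2 fold change in liver CR was -0.51 (SE 0.20, adjusted p = 0.241 by edgeR) in the authors' deposited table. The transcript that rose in TR was Tfeb-202, and the same transcript was lower in CR than in TR (adjusted p of 0.00339 and 0.0334 by edgeR) in the authors' deposited tables. It was the only one of 27 called between CR and TR, beside 0.165% of all transcripts lower and 0.323% called in all. At a log2 mean CPM of -0.79 or lower, with AL or CR near 0, its fitted fold depends on the offset used in the fit and is left out. Transcripts of 1 gene share reads, so their fold changes are not separate measurements.

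**Figure D2:**
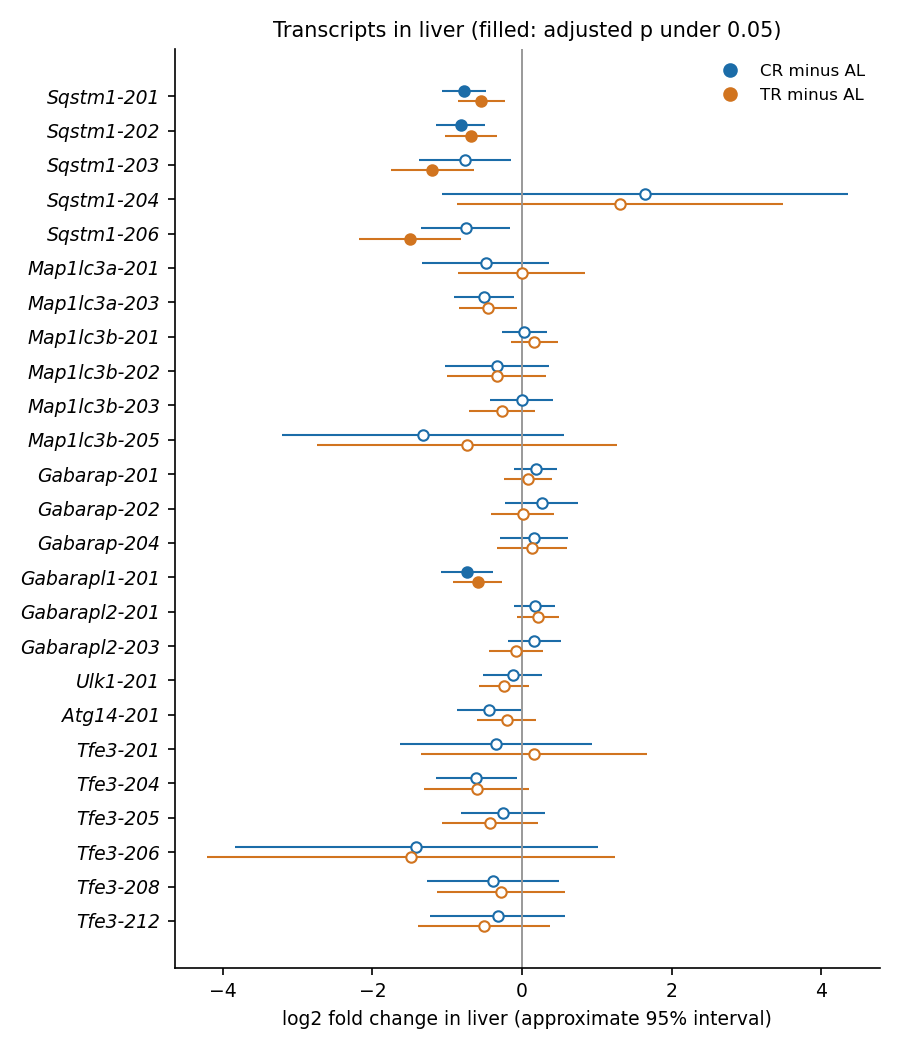
Log2 fold change against AL in liver (x axis) of the transcripts of 9 of the 10 genes (y axis, Tfeb left out), CR in blue and TR in orange, with approximate 95% intervals. Filled points, which passed the adjusted p of 0.05, are Sqstm1-201, Sqstm1-202 and Gabarapl1-201 on both diets and Sqstm1-203 and Sqstm1-206 in TR.

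Between CR and TR in the liver, 0 of the 10 genes passed the threshold by edgeR, beside 0.469% of 12593 genes. Tfeb was the 1 member with an unadjusted p under 0.05, at -0.55 (SE 0.24, adjusted p = 0.370 by edgeR) in the authors' deposited table. The approximate 95% interval of CR minus TR lay within 0.5 of 0 for 8 of the 10 genes, and within 1 for 9. For Sqstm1 the value was -0.10 (-0.35 to 0.15), for Gabarapl1 -0.13 (-0.42 to 0.15) and for Tfe3 0.0035 (-0.22 to 0.23) in the authors' deposited table. Map1lc3a had -0.10 (-0.35 to 0.15) and Atg14 -0.22 (-0.50 to 0.06) in the authors' deposited table, so the 2 genes called in CR alone were not shown to differ between the diets. Both comparisons against AL use the same AL libraries.

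**Figure D3:**
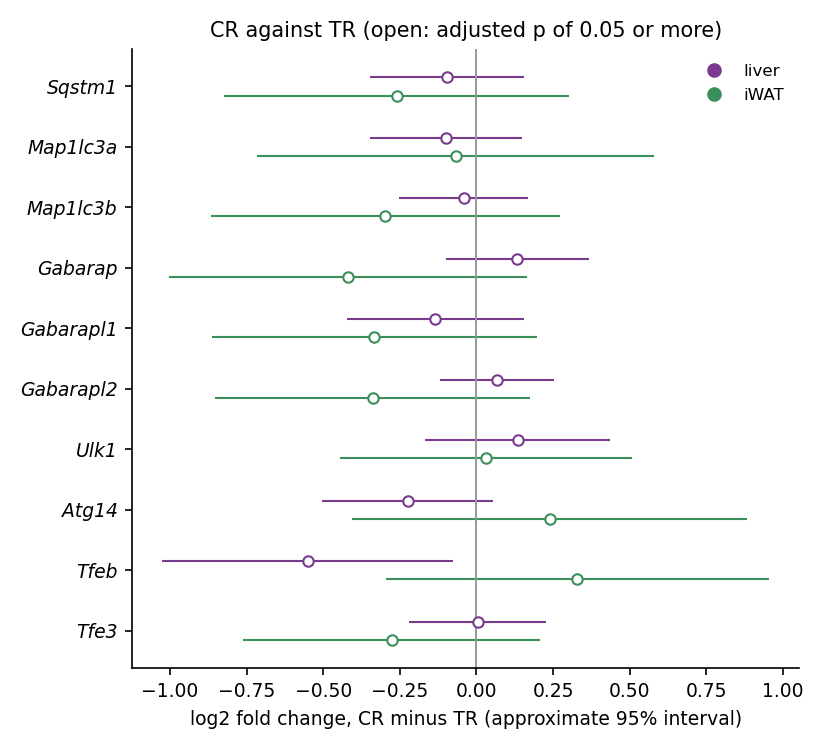
Log2 fold change of CR minus TR (x axis) for the 10 genes (y axis), liver in purple and iWAT in green, with approximate 95% intervals. No point passed the adjusted p of 0.05, and the iWAT interval is the wider one for each of the 10 genes.

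In iWAT 0 of the 10 genes passed the threshold on either diet by edgeR, beside 7.3% of 15295 genes in CR and 10% of 15356 in TR. At an unadjusted p under 0.05 there were 2 genes in CR and 1 in TR. Gabarapl2 had 0.43 in CR and 0.70 in TR (SE 0.21 and 0.28, adjusted p of 0.224 and 0.0915 by edgeR) in the authors' deposited tables. Gabarapl1 had -0.57 in CR and -0.31 in TR (SE 0.24 and 0.32, adjusted p of 0.144 and 0.596 by edgeR) in the authors' deposited tables. Sqstm1 had -0.08 in CR (approximate 95% interval -0.64 to 0.47) and 0.11 in TR (-0.49 to 0.70), and Tfe3 0.07 (-0.36 to 0.49) and 0.27 (-0.28 to 0.82), in the authors' deposited tables. The intervals of Sqstm1 in iWAT hold 0 and reach below -0.48 on both diets.

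The other members had the following values in iWAT, CR before TR. Gabarap, first known as a protein that binds a neurotransmitter receptor, had 0.16 and 0.50, Map1lc3a -0.25 and -0.25, and Map1lc3b 0.0025 and 0.23 in the authors' deposited tables. Ulk1 had 0.35 and 0.25, Atg14 -0.14 and -0.44, and Tfeb 0.34 and -0.04 in the authors' deposited tables. None of these passed the threshold, with SE between 0.21 and 0.41 over the 10 genes and both diets, beside 0.098 to 0.30 in liver. Between CR and TR in iWAT 0 of the 10 passed (0 at an unadjusted p under 0.05, edgeR), beside 0.918% of 14699 genes, and the interval lay within 1 of 0 for 9 genes and within 0.5 for none. Of the transcripts, 0 of 32 in CR, 0 of 30 in TR and 0 of 31 between the diets passed, beside 2.45%, 3.55% and 0.413% of all, with 1, 2 and 1 at an unadjusted p under 0.05 by edgeR.

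Markers of other tissues differed between the iWAT groups. All 9 listed liver markers were measured in iWAT and 7 of them fell in CR, with a median of -4.09, while their median in TR was 2.26 with 0 called by edgeR (1 at an unadjusted p under 0.05) in the authors' deposited tables. Of 12 skeletal muscle markers 0 were called in CR (0 at an unadjusted p under 0.05, edgeR), with a median of 1.17, and 5 fell in TR, with a median of -2.89, in the authors' deposited tables. Between CR and TR 9 of 9 liver markers were lower in CR and 2 of 11 muscle markers higher. Their part in the values of the 10 genes in iWAT was not tested. Of 8 adipocyte markers, all measured in iWAT, 0 were called in CR by edgeR (1 at an unadjusted p under 0.05), and Fabp4 and Retn rose and Lep fell in TR. In the liver tables no skeletal muscle marker was present, Adipoq, Lep, Plin1 and Retn were absent, and all 9 liver markers were measured, with Tat and Ttr higher in CR and Ttr and Alb in TR. Of the adipocyte markers present in liver, Cidec and Pparg fell on both diets and Lipe rose in TR.

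In the same tables, 5 of 5 brown and beige fat markers rose in iWAT on both diets. The 8 macrophage markers all had values below 0 in iWAT on both diets, with medians of -0.65 in CR and -0.74 in TR. Of these, Mrc1 fell in CR, and Mrc1 and Itgam fell in TR (edgeR, 6 and 4 at an unadjusted p under 0.05). In liver their medians were -0.18 and -0.47, and Lyz2 fell in TR (edgeR, 0 in CR and 3 in TR at an unadjusted p under 0.05). The 5 Kupffer cell markers all had values below 0 in liver on both diets, with medians of -0.36 in CR and -0.59 in TR. Of these, Marco and Timd4 fell in TR (edgeR, 4 at an unadjusted p under 0.05), and 0 were called in CR (0 at an unadjusted p under 0.05, edgeR). Of 6 endothelial markers Kdr fell in liver in TR, Tek fell in iWAT on both diets and Lyve1 in TR. Of 6 fibroblast and stellate cell markers in liver, Col1a1 and Col3a1 rose on both diets, with list medians of 0.14 in CR and -0.05 in TR. The others were not called: Pdgfra (-0.20 and -0.38), Lrat (-0.12 and -0.33), Dcn (-0.03 and -0.22) and Des (0.30 and 0.11), CR before TR. Of 5 measured in iWAT, Dcn fell on both diets and Pdgfra in TR, with medians of -0.31 and -0.95. Des had 0.97 in iWAT in CR and was not called. Of 7 lymphocyte markers, 4 of them measured in liver, 0 were called in either tissue (edgeR, 0 at an unadjusted p under 0.05 against AL). In iWAT all 7 had values above 0 on both diets, with medians of 1.22 in CR and 1.05 in TR. In liver their medians were 0.30 and -0.32. Of the mammary and epithelial markers Epcam alone was called, higher in liver in TR. In liver Elovl3, the only brown and beige marker present, rose in CR and fell in TR. Their part in the values of the 10 genes was not tested.

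The size of the diet effect was then compared between the tissues directly, as the iWAT minus liver difference of the log2 fold changes. None of the 10 genes passed an adjusted p of 0.05 in this approximate test on either diet, beside 6.73% of 12012 genes in CR and 7.81% of 12201 in TR. For Sqstm1 the difference was 0.67 in CR (SE 0.31, adjusted p = 0.206 over all genes, an approximate test on edgeR statistics) and 0.76 in TR (SE 0.33, adjusted p = 0.152, same test). For Tfe3 it was 0.51 in CR (SE 0.25, adjusted p = 0.237, the same test on edgeR statistics) and 0.72 in TR (SE 0.30, adjusted p = 0.139). At an unadjusted p under 0.05 there were 2 genes in CR, Sqstm1 and Tfe3, and 3 in TR, these 2 and Gabarapl2. The liver falls are thus not shown to differ from the iWAT values.

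**Figure D4:**
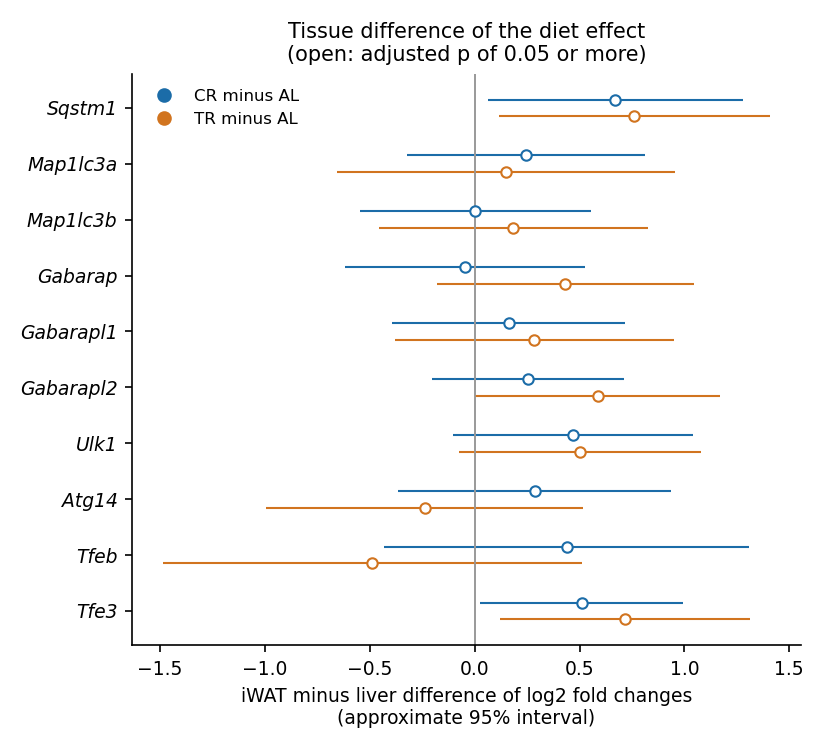
Difference between the tissues in the log2 fold change against AL, iWAT minus liver (x axis), for the 10 genes (y axis), CR in blue and TR in orange, with approximate 95% intervals. The intervals of Sqstm1 and Tfe3 lie above 0 on both diets before adjustment, and no point passed the adjusted p of 0.05.

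As a level, 9 of the 10 genes had a higher log2 mean CPM in the iWAT tables than in the liver tables, averaged over the 3 comparisons of a tissue. The tables were normalized separately, so these gaps are a description. Map1lc3a had the widest gap, at 4.43 in liver and 7.31 in iWAT, followed by Map1lc3b at 6.41 and 8.28 in the authors' deposited tables. Tfeb had 1.69 and 3.35 and Tfe3 4.52 and 6.06, Gabarap 7.52 and 8.47, Gabarapl2 5.55 and 6.44, and Ulk1 4.70 and 5.52 in the authors' deposited tables. Sqstm1 (8.21 and 8.57), Gabarapl1 (7.31 and 7.40) and Atg14 (3.59 and 3.56) were nearly level between the tissues in the authors' deposited tables. CPM is not scaled to transcript length, so one gene is not ranked against another.

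The remaining autophagy and lysosome genes were read from lists that leave out the 10. For the counts below, the shares called over all genes were 11.2% in CR and 18.9% in TR in liver. In iWAT they were 7.3% and 10%. Of 31 genes of the core machinery, which start, grow and lipidate the autophagic membrane, 0 were called in liver in CR (edgeR, 4 at an unadjusted p under 0.05), with a median of -0.02, and 4 fell in TR, with a median of -0.08. The 4 were Atg7, the enzyme that activates LC3 for conjugation (-0.52), Atg13, a ULK1 complex subunit (-0.46), Pik3c3, the lipid kinase itself (-0.45), and Wipi1, which binds its product (-0.49), in the authors' deposited table. In iWAT 0 of the 31 were called in CR (edgeR, 2 at an unadjusted p under 0.05), and Ulk2, the relative of Ulk1, fell in TR by 0.82 with an adjusted p of 0.04997 by edgeR in the authors' deposited table.

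Of 18 other cargo receptors, Stbd1, a receptor for glycogen, and Tax1bp1, a ubiquitin-binding receptor, fell in the liver on both diets. Stbd1 had -0.57 in CR and -0.63 in TR, and Tax1bp1 -0.45 and -0.54, in the authors' deposited tables. In TR Nbr1, the receptor most like p62, also fell (-0.33), and Bcl2l13, a mitophagy receptor, rose (0.33), in the authors' deposited table. Of 14 genes of fusion with the lysosome, Vps11 (-0.31) and Vps41 (-0.32) fell in liver in CR and Vps41 (-0.43) and Epg5 (-0.39) in TR, and Ykt6, a SNARE, rose by 0.86 in iWAT in TR, in the authors' deposited tables. In iWAT 0 of the 18 receptors were called (edgeR, 6 at an unadjusted p under 0.05 in CR and 5 in TR).

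Of 23 genes upstream in nutrient signalling, Ddit4, an inhibitor of mTORC1, rose in liver on both diets (1.07 in CR and 0.67 in TR) in the authors' deposited tables. Flcn, which acts on the mTORC1-dependent control of TFEB and TFE3, fell in CR (-0.42), and Mtor (-0.41), Sesn1 (-0.41), Rheb (-0.33) and Tsc1 (-0.39) fell in TR in the authors' deposited tables. These 4 include both activators and inhibitors of mTORC1. Of 9 transcription factors, Foxo3 rose in liver by 0.59 in CR and 0.47 in TR, and Nr1h4, the bile acid receptor of hepatocytes, fell in iWAT in CR by 2.23 in the authors' deposited tables. Nr1h4 fell in the table in which the liver markers fell. In iWAT 0 of the 23 signalling genes were called (edgeR, 2 at an unadjusted p under 0.05 in CR and 5 in TR).

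Of 33 lysosomal genes, the liver counts were 3 up and 2 down in CR, and 4 up and 2 down in TR. Glb1, a galactosidase (0.65 and 0.76), Atp6v1d, a proton pump subunit (0.45 and 0.51), and Npc2, a cholesterol carrier (0.37 and 0.46), rose on both diets in the authors' deposited tables. Npc1, the membrane partner of NPC2, fell on both (-0.49 and -0.53) in the authors' deposited tables. Gaa, the glycogen-degrading glucosidase, fell in CR (-0.68), and Naglu rose (0.59) and Atp6v1h fell (-0.31) in TR, in the authors' deposited tables. In iWAT Atp6v1d rose on both diets (0.88 and 1.03), and Ctsd, a cathepsin (1.58), and Npc2 (0.99) rose in TR in the authors' deposited tables.

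Over all 128 genes of these lists, 5 were up and 7 down in liver in CR, and 7 up and 15 down in TR, with medians of -0.02 and -0.05. In iWAT 1 was up and 1 down in CR, against 4 up and 1 down in TR. The shares called were 9.38% and 17.2% in liver and 1.56% and 3.91% in iWAT, CR before TR. Between CR and TR 0 of 128 were called in either tissue by edgeR, with 8 in liver and 3 in iWAT at an unadjusted p under 0.05. The shares against AL lay below those over all genes in each of the 4 comparisons, while 50% of the 10 genes were called in liver in CR and 30% in TR. The 10 genes and the lists were chosen with earlier results of these data known, so this contrast is a description.

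The last list holds 8 targets of NRF2, an antioxidant transcription factor. Of 7 measured in liver, 4 fell in CR and 2 in TR, and none rose, beside 5.37% and 9.54% of all genes lower. The median of the 7 was -0.44 in CR and -0.17 in TR. Whether these genes and Sqstm1 moved from a shared cause was not tested. Srxn1, sulfiredoxin, fell by 0.88 in CR and 0.74 in TR, and Gsr, glutathione reductase, by 0.49 and 0.53 in the authors' deposited tables. Gclc, for glutathione synthesis, fell by 0.44 and Nqo1, a quinone reductase, by 0.52 in CR in the authors' deposited table. Nfe2l2, which encodes NRF2, had -0.06 in CR and -0.08 in TR (adjusted p of 0.840 and 0.730 by edgeR) in the authors' deposited tables. In iWAT 0 of 8 targets were called on either diet (edgeR, 0 at an unadjusted p under 0.05).

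**Figure D5:**
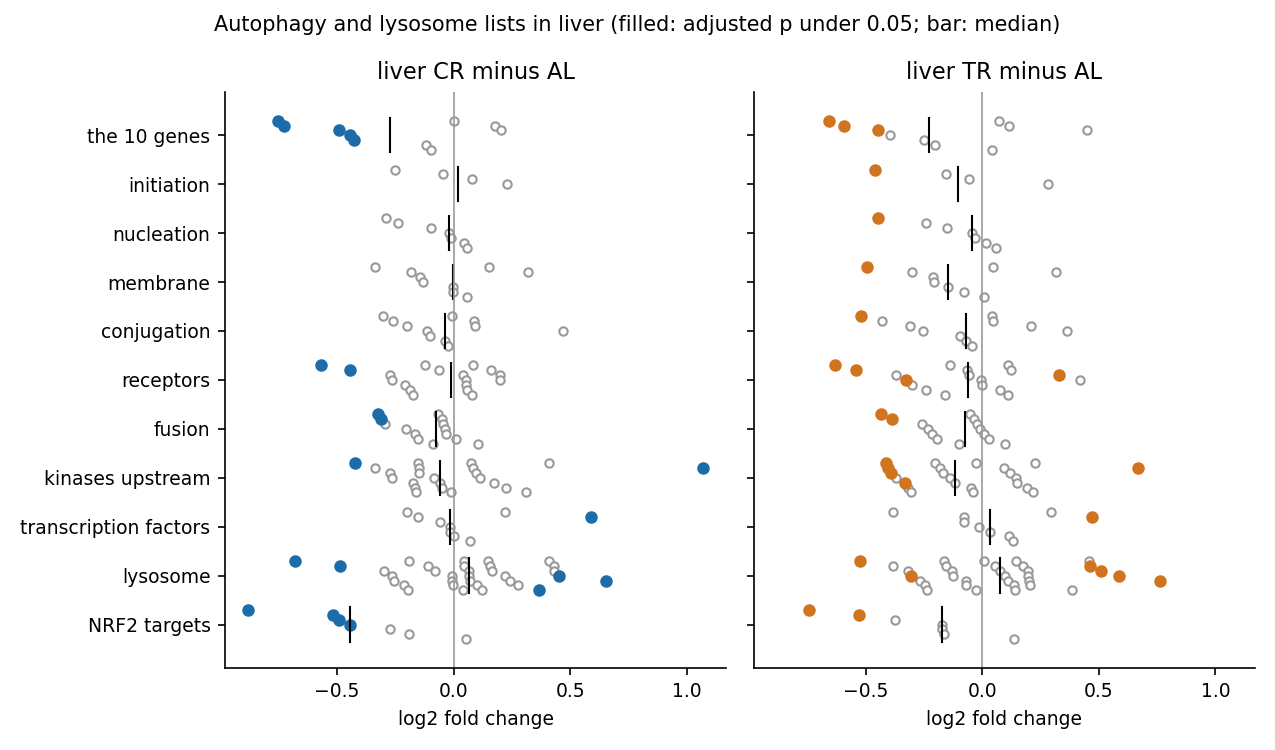
Log2 fold change in liver (x axis) of the 10 genes and of 10 lists of other genes (y axis), CR minus AL at left and TR minus AL at right. Each point is a gene, filled where the adjusted p was under 0.05, and the bar is the median of its row, which is lowest for the NRF2 targets in CR and for the 10 genes in TR.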

How the data were processed

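Trizol RNA was made into Illumina TruSeq libraries, per the labels' protocols. Per the submitters' processing notes, bcl2fastq 2.20, STAR 2.5.3a, RSEM (version not given) and GRCm38.p5 were used. Strandedness, filter and edgeR version were not given in the sources used here. Deposited by the authors, per the file headers, were 12 edgeR tables of comparisons, 6 of genes and 6 of transcripts, without values per library. Their log2 columns hold the deposited log2 fold change and log2 mean CPM, per the file headers. The score column is the deposited likelihood-ratio statistic, and the p-value columns are the deposited p-value and its Benjamini-Hochberg adjusted form. No label pairs mice of different diets.

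From these tables the approximate SE was the log2 fold change over the root of the statistic, and 95% intervals used the normal quantile. Each deposited p lay within 5e-06 of the chi-square tail of its statistic. The tissue test divided the difference by the root of the summed squared SE, 2-sided, adjusted over all genes in both tables. It took the tissues as uncorrelated, although 16 mice gave both. It was tested on simulated data whose errors were drawn independently for each tissue, so that run cannot show how it behaves for tissues of the same mouse. Scripts ran in Python 3.11.15 with pandas 2.3.3 and statsmodels 0.14.6. Depth is unknown, and the count models planned for counts per library were not run.

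The members and lists were chosen with earlier results of these data known. All members are named. Of the other listed genes, the 3 with the smallest adjusted p per list and table were eligible and those called are named, and Nqo1, Gaa, Npc2 in liver, Nbr1, Tsc1, Ddit4 in TR, Naglu, Atp6v1h, Nfe2l2 and the marker genes were named after their values were seen. The 3 genes nearest to Sqstm1 reached a log2 mean CPM of 3 in each of the 4 tables. One coding sequence is not reported here.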

Additional observations from a re-analysis of the deposited data

How the results depend on the processing

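No paired analysis was possible because the tables hold comparisons of groups and no values per library, so replicates could not be left out or blocked. Alternatives were another adjusted p threshold (0.10 or 0.01), adjustment over genes that reach 1 or 3 in log2 mean CPM, centring on the table median, the main transcript of each gene, and a correlation of 0.3 or -0.3 between tissues. The count by main transcript was added after the data were seen. Of 72 counts of called members, their transcripts or tissue differences under these, 66 stayed within 1.5 times. Counts of 0 that stayed 0 are among the 66. They include all those of tissue differences and all in iWAT except the TR gene count at 0.10. By main transcript the liver CR count was 2, beside 2.66% of all transcripts called in that comparison. At 0.01 the liver CR count was 3, and at 0.10 the iWAT TR count was 1. The 1 transcript called between CR and TR in liver became 0 at 0.01 and under both level filters. All 60 tissue differences kept an adjusted p of at least 0.0569. Read from the main transcript, liver calls of Atg14 (-0.44) and Map1lc3a (-0.51) in CR and of Tfe3 on both diets (-0.61 and -0.61) missed the threshold. The values that changed sign were uncalled in both readings. Centred, they were Map1lc3b in CR in liver (0.0034) and iWAT (-0.022), its tissue difference in CR (-0.025), and Tfe3 in CR minus TR in liver (-0.0037). By transcript they were Gabarapl2 in CR minus TR in liver (-0.041), Map1lc3b in CR in iWAT (-0.037) and liver (0.031), and Tfe3 in iWAT in CR (-0.14) and TR (-0.085, against 0.27 in the gene table). The cause was not tested. The difference of the 2 comparisons with AL gave CR minus TR within 1 SE for all 10 genes in both tissues.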
